A study of Homo sapiens with 10 samples.

Results

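The genes described here form the switch that turns on the kinase CDK2 at the end of G1: the E-type cyclin genes CCNE1 and CCNE2, the phosphatase gene CDC25A, CDK2 itself, and the ubiquitin ligase regulators FBXW7 and FBXO5. They are 6 of the 14232 genes that had a probe set annotated to exactly 1 symbol, and each had 1 such probe set (CCNE1 3828112, CCNE2 3145107, CDC25A 2673085, CDK2 3417146, FBXW7 2789957 and FBXO5 2980241). They were picked by function with the outcome of the treatment already known, so their differences between the treatments are given as a description: which of them the fit over all probe sets called is stated, and support for a difference is not drawn from those calls.

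Expression was measured on gene-level Affymetrix exon arrays in U2OS, a human osteosarcoma cell line. The treated cells received PD0332991 (palbociclib, an inhibitor of CDK4 and CDK6) for 4 h, and the others the solvent DMSO for the same 4 h, with 5 biological replicates of each. All cells had first been grown for 30 h, from 25% density and with 10% serum. The labels state a dose of 1 mM, which is doubtful, since micromolar doses are usual for this compound, and which the arrays cannot settle. The array names divide the arrays into set 1 (replicates 1 to 3 of both treatments) and set 2 (replicates 4 and 5 of both). Everything comes from 1 cell line, so the replicates carry the spread of the cultures and not that of different tumours.

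In the G1 phase, cyclin D with CDK4 or CDK6 starts to phosphorylate the retinoblastoma protein RB, which holds E2F transcription factors in check. Freed E2F activates the E-type cyclin genes and CDC25A; cyclin E then binds CDK2, CDC25A removes the inhibitory phosphates from CDK2, and the active kinase phosphorylates RB further, which closes a positive loop. Ubiquitin ligases limit the loop: FBXW7 is the F-box subunit by which an SCF ligase recognises phosphorylated cyclin E, and FBXO5 encodes EMI1, an inhibitor of the anaphase-promoting complex (APC/C), which protects cyclin A and is itself a known E2F target.

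Promoter sequence is shown for CCNE1 and CDC25A, because their values moved together across the arrays, as described further on. The sequences come from RefSeq (GRCh38.p14); 4 of the 6 genes, CCNE1, CDC25A, FBXW7 and FBXO5, had a window. Each is the 250 bases before the annotated start, 5′ to 3′ on the strand of the gene: chr19:29811741-29811990, plus strand, for CCNE1 and chr3:48188418-48188667, minus strand, for CDC25A. Capitals mark the E2F words TTTGGCGC, TTTCCCGC, TTTCGCGC and TTTGCCGC, the CCAAT box CCAAT and the GC box GGGCGG, each searched on both strands.
CCNE1: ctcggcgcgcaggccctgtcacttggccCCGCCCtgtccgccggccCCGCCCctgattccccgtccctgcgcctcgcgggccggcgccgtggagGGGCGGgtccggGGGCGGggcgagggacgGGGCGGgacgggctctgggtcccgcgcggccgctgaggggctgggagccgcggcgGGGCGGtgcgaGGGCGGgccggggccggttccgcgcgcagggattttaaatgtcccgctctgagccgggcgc
CDC25A: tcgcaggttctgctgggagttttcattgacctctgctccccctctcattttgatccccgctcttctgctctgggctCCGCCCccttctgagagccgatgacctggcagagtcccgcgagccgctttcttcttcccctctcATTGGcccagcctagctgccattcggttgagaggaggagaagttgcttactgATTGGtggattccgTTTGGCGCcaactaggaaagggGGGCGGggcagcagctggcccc

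The CDC25A stretch held 1 E2F word, TTTGGCGC, at chr3:48188454-48188461, ending 36 bases before the start, with CCAAT boxes 53 and 105 bases before the start and 2 GC boxes. The CCNE1 stretch held 7 GC boxes and none of the E2F words or CCAAT boxes, which says only that these letters are not in this window. Among the 250-base stretches before all 35116 annotated starts, 2.788% held an E2F word, 32.01% a CCAAT box and 42.64% a GC box. FBXO5 had 2 annotated starts, and the second had the word TTTGAA of the cell cycle genes homology region on its other strand, as found before 13.32% of starts. It is in capitals in the 30 bases of chr6:152983064-152983093, minus strand.
FBXO5: ttaggcaccaaaTTCAAAgattttaaaagt
FBXW7 had 4 annotated starts, and 1 of them also had the word TTTGAA. None of the FBXO5 or FBXW7 stretches held an E2F word.

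Some facts of the whole table bear on the results. The medians of the 10 arrays spanned 6.95 to 7.06 in log2 units. DMSO replicate 1 stood apart from the others: its interquartile range was 3.18, the narrowest of a span that reached 3.68, and its median correlation with the other arrays was 0.964, the lowest of a span that reached 0.987. For this reason the values without it are given beside each of the 6 genes, and beside other refitted genes where they moved by over 1.5 times or changed a call. CCNA2, CDC25C and CUL1, named further on, were not refitted without it. Of the osteoblast and mesenchymal markers, 14 of 15 were measured, and 9 of these (among them COL1A1, SPARC, VIM and RUNX2) lay above the array median on every array, whereas 5 (SP7, ALPL, IBSP, COL1A2 and TWIST1) lay below it on every array. Of 10 epithelial markers, KRT8, KRT18 and CLDN3 lay above the median on every array, and of the 7 blood markers measured (of 10) 0 did. The mean level of the osteoblast list was 8.49 to 8.64 on PD0332991 arrays, against 8.45 to 8.71 on DMSO arrays. That of the epithelial list was 6.77 to 7.30 on PD0332991 arrays, against 6.75 to 7.19 on DMSO arrays, and that of the blood list 5.17 to 5.75 on PD0332991 arrays, against 5.31 to 5.84 on DMSO arrays. In bulk RNA, fewer cells expressing a gene and less RNA per cell cannot be told apart, which holds for every difference below.

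CCNE1, CCNE2 and CDC25A were lower after PD0332991, whereas CDK2, FBXW7 and FBXO5 did not pass the threshold. The threshold is an adjusted p under 0.05 in a limma fit of treatment and array set, with Benjamini-Hochberg adjustment over all 21980 probe sets. It called 3 of the 6 genes lower and 0 higher. Over all probe sets it called 0.0409% lower and 0.0091% higher; since the genes were picked with this contrast known, nothing is read from the comparison of these shares. In the order of all 14232 genes from the most negative log2 fold change upward, CCNE2 was at place 1, CDC25A at place 5, CCNE1 at place 8, FBXO5 at place 797, CDK2 at place 1127 and FBXW7 at place 9273.

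CCNE2 encodes cyclin E2, the second E-type partner of CDK2. On the PD0332991 arrays it had log2 values of 6.29, 5.72, 6.41, 5.97 and 6.08 (replicates 1 to 5), against 7.47, 8.26, 8.46, 7.79 and 7.94 on the DMSO arrays. The groups did not overlap, and the lowest control was DMSO replicate 1. The mean was 6.09 ± 0.27 after PD0332991 and 7.99 ± 0.39 in DMSO (log2, SD, n = 5 each), a log2 fold change of -1.89 with a 95% confidence interval of -2.33 to -1.45, so that the treated level was 0.270 times the DMSO level. Without DMSO replicate 1 the log2 fold change was -2.05. Every treated value lay under the median of the arrays, where log2 array values compress differences.

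CCNE1 encodes cyclin E1. Its log2 values were 9.16, 9.18, 9.41, 9.10 and 9.16 on the PD0332991 arrays, against 10.06, 10.06, 10.23, 10.18 and 10.26 on the DMSO arrays. Again the groups did not overlap, and PD0332991 replicate 3 stood above the other treated arrays, which lay close together. The means were 9.20 ± 0.12 after PD0332991 and 10.16 ± 0.09 in DMSO (log2, SD, n = 5 each). The log2 fold change was -0.95 (95% confidence interval -1.17 to -0.74), the treated level being 0.516 times that in DMSO. Without DMSO replicate 1 it was -0.98.

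CDC25A encodes the phosphatase that removes inhibitory phosphates from CDK2. It had log2 values of 7.93, 7.92, 8.24, 7.44 and 7.59 on the PD0332991 arrays, against 8.90, 8.98, 9.07, 8.89 and 8.76 on the DMSO arrays. The groups did not overlap, and the treated arrays of set 2 lay below those of set 1. The mean was 7.83 ± 0.32 after PD0332991 and 8.92 ± 0.12 in DMSO (log2, SD, n = 5 each), a log2 fold change of -1.09 (95% confidence interval -1.35 to -0.84) and a treated level 0.468 times that in DMSO. Without DMSO replicate 1 it was -1.14.

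The 3 calls depended on which arrays were in the fit. They were kept without DMSO replicate 1, 2 or 3 or PD0332991 replicate 2 or 3 (limma adjusted p 0.0029 to 0.0473). They were lost without DMSO replicate 4 or 5 or PD0332991 replicate 1, 4 or 5 (limma adjusted p 0.0521 to 0.0590). Over all 10 of these fits the log2 fold changes stayed within -2.05 to -1.77 for CCNE2, -1.01 to -0.92 for CCNE1 and -1.17 to -1.04 for CDC25A.

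**Figure D1:**
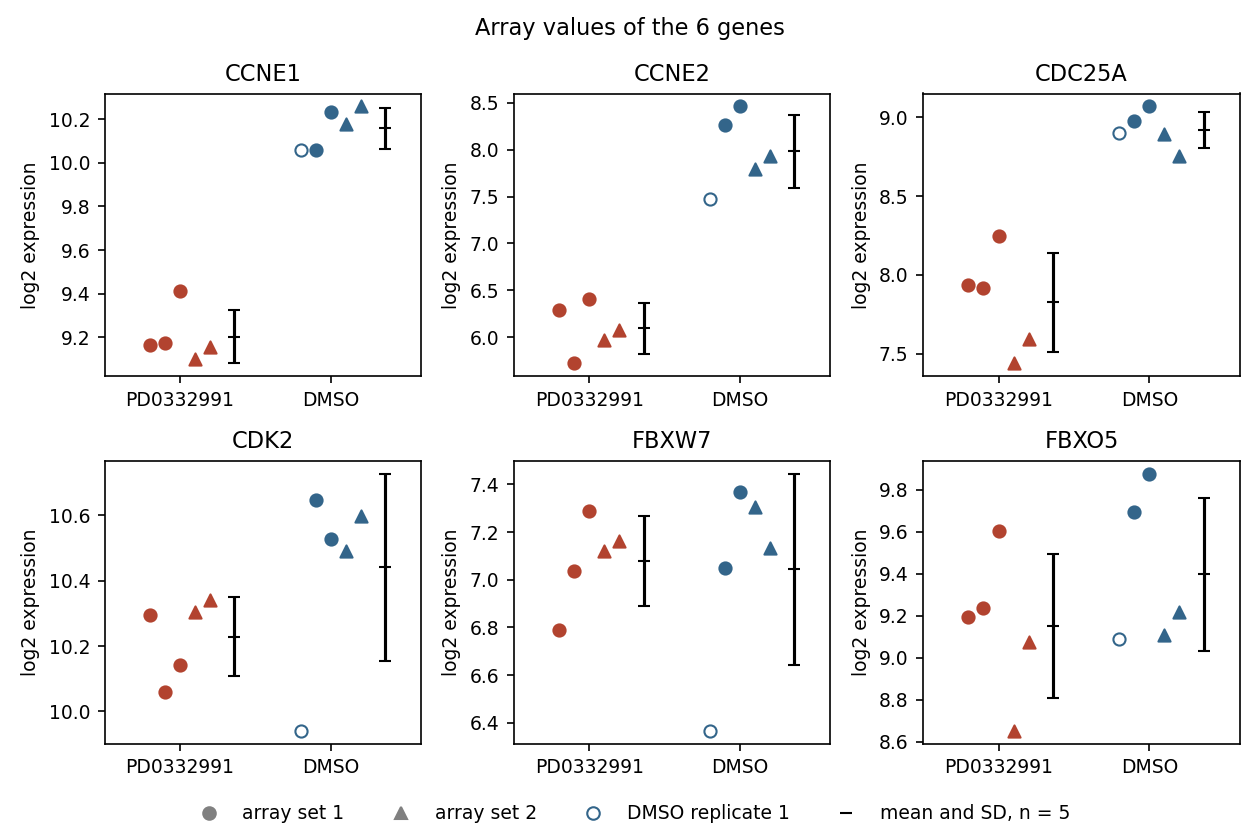
Log2 expression of each gene on every array, PD0332991 on the left and DMSO on the right of each panel, with circles for array set 1, triangles for set 2, an open circle for DMSO replicate 1 and a bar for the mean and SD of 5 arrays; the vertical axes differ and do not start at 0. CCNE1, CCNE2 and CDC25A have no treated array above any DMSO array, whereas CDK2, FBXW7 and FBXO5 overlap, with DMSO replicate 1 the lowest DMSO value of each of these.

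CDK2, the kinase that cyclin E activates, had log2 values of 10.30, 10.06, 10.14, 10.31 and 10.34 on the PD0332991 arrays, against 9.94, 10.65, 10.53, 10.49 and 10.60 on the DMSO arrays. DMSO replicate 1 lay below every treated array, and the other 4 DMSO arrays lay above every treated array. The mean was 10.23 ± 0.12 after PD0332991 and 10.44 ± 0.29 in DMSO (log2, SD, n = 5 each), a log2 fold change of -0.21 (95% confidence interval -0.51 to 0.09). Without DMSO replicate 1 the DMSO mean was 10.57 ± 0.07 (SD, n = 4) and the log2 fold change -0.33 (95% confidence interval -0.52 to -0.14), over 1.5 times the value with all arrays. Without DMSO replicate 2, the highest control, it was -0.14, smaller than with all arrays by over 1.5 times. CDK2 was not past the limma threshold over all probe sets in either fit.

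FBXO5, the gene of the APC/C inhibitor EMI1, had log2 values of 9.19, 9.23, 9.60, 8.65 and 9.07 on the PD0332991 arrays, against 9.09, 9.69, 9.88, 9.11 and 9.22 on the DMSO arrays. The groups overlapped, and in both treatments replicate 3 was the highest array. The mean was 9.15 ± 0.34 after PD0332991 and 9.40 ± 0.36 in DMSO (log2, SD, n = 5 each). Its log2 fold change of -0.25 (95% confidence interval -0.61 to 0.12) became -0.38 (95% confidence interval -0.66 to -0.09) without DMSO replicate 1, and -0.16 without DMSO replicate 3, each over 1.5 times away from the value with all arrays. FBXO5 passed in none of these fits.

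FBXW7, the receptor for phosphorylated cyclin E, had log2 values of 6.79, 7.03, 7.29, 7.12 and 7.16 on the PD0332991 arrays, against 6.37, 7.05, 7.37, 7.30 and 7.13 on the DMSO arrays. DMSO replicate 1 was the lowest of all 10 arrays, and the other 4 DMSO arrays overlapped with the treated ones. The mean was 7.08 ± 0.19 after PD0332991 and 7.04 ± 0.40 in DMSO (log2, SD, n = 5 each). The log2 fold change was 0.04 (95% confidence interval -0.37 to 0.44) with all arrays and -0.13 (-0.40 to 0.14) without DMSO replicate 1, so the data give no direction for FBXW7.

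The changes differed in size among the genes. Taken as a difference of log2 fold changes on the same arrays, the change of CCNE1 stood 0.94 above that of CCNE2 (95% confidence interval 0.47 to 1.40), and that of CCNE2 stood 0.80 below that of CDC25A (first minus second -0.80, 95% confidence interval -1.28 to -0.32). CCNE1 and CDC25A differed by 0.14 (0.02 to 0.26). Against their kinase, the log2 fold change of CCNE1 minus that of CDK2 was -0.74 (-1.08 to -0.40), that of CCNE2 minus CDK2 -1.68 (-1.98 to -1.38) and that of CDC25A minus CDK2 -0.88 (-1.25 to -0.52). The intervals come from a linear model of the difference on the 10 arrays and describe genes that were picked with these changes known. They compare changes and not levels, since values of different probe sets have no common scale. Sizes of change also depend on the probe set, as dim values compress differences. The intervals were not computed without DMSO replicate 1, which moved the log2 fold changes of CDK2 and CCNE2. Among the genes not called, FBXW7 minus FBXO5 was 0.28 (0.05 to 0.51). CDK2 minus FBXW7 was -0.25 (-0.61 to 0.12), and CDK2 minus FBXO5 was 0.03 (-0.27 to 0.33).

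Whether the changes differed between the array sets is a question that the choice of the genes did not use. The log2 difference of means was -1.92 in set 1 and -1.84 in set 2 for CCNE2, -0.87 and -1.09 for CCNE1, and -0.95 and -1.31 for CDC25A. For CDK2 it was -0.20 in set 1 and -0.22 in set 2, for FBXO5 -0.21 and -0.30, and for FBXW7 0.11 and -0.08. limma's interaction term of treatment and set called 0% of the 21980 probe sets, with 562 at an unadjusted p under 0.05. At that cutoff 1099 are expected if no probe set differs between the sets. Among the 6 genes the largest interaction was that of CDC25A (-0.36, set 2 minus set 1, 95% confidence interval -0.85 to 0.13, limma adjusted p = 1.00). The intervals of the other 5 reached -1.05 on the lower and 1.04 on the upper side, and that of CCNE1 was narrower, at -0.67 to 0.23. With 10 arrays, differences between the sets within the interval of each gene were not excluded.

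**Figure D2:**
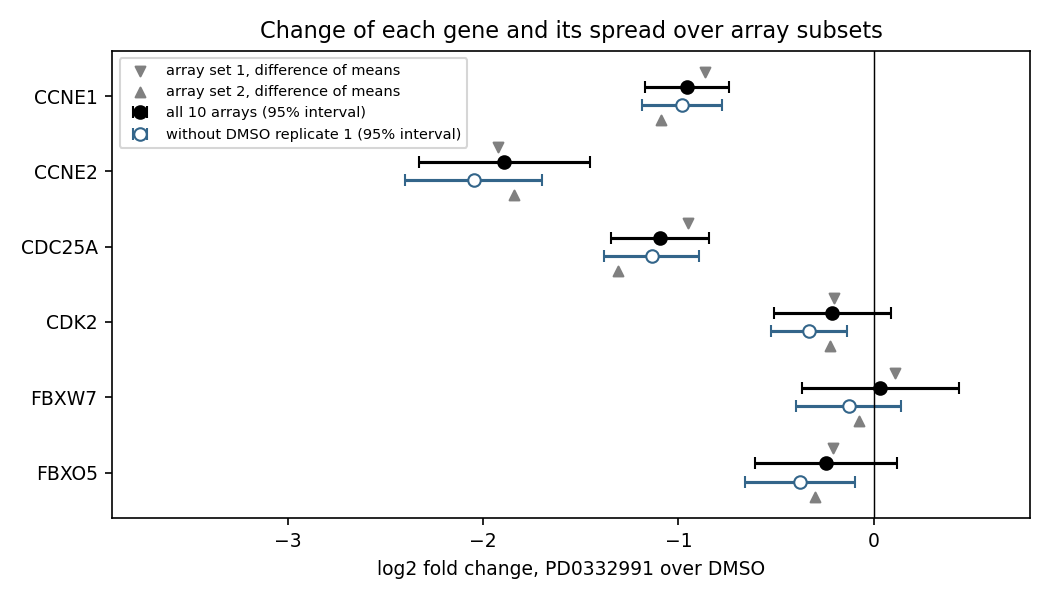
Log2 fold change of each gene, PD0332991 over DMSO, with all 10 arrays (filled circles, 95% confidence interval), without DMSO replicate 1 (open circles) and as the difference of means within each array set (triangles, no error shown). The points of CCNE1, CCNE2 and CDC25A lie between -2.05 and -0.87, those of CDK2 and FBXO5 between -0.38 and -0.20, and those of FBXW7 on both sides of 0.

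Beyond the average treatment change, some of the genes moved together between replicates. After treatment and array set were removed from the log2 values, the residuals of CCNE1 and CDC25A correlated at r = 0.87 over the 10 arrays, and at r = 0.84 over the 9 arrays without DMSO replicate 1. PD0332991 replicate 3 was the highest treated array for both genes, and r without it was not computed. The residuals also keep any difference in the treatment change between array sets, and both genes changed more in set 2. FBXW7 and FBXO5 had r = 0.87 over 10 arrays and 0.66 over 9, and CCNE2 and FBXO5 had 0.82 and 0.58. CCNE1 had 0.65 and 0.60 with FBXO5, and 0.62 and 0.60 with FBXW7. CDC25A had 0.62 and 0.50 with FBXO5, and 0.62 and 0.54 with FBXW7. CCNE2 and CDK2 had r = 0.84 over 10 arrays and 0.62 over 9, and CCNE1 and CCNE2 had r = 0.46 over 10 and 0.28 over 9. CDK2 and FBXW7 turned from 0.64 over 10 arrays to -0.49 over 9, so that relation rested on DMSO replicate 1. CDK2 and FBXO5 went from 0.70 to 0.03, and CCNE2 and FBXW7 from 0.72 to 0.26. CDK2 went from 0.16 to -0.46 with CCNE1, and from 0.17 to -0.52 with CDC25A. CCNE2 and CDC25A had 0.39 over 10 arrays and 0.13 over 9. Residual r over all pairs of genes was not computed. The points share the arrays, their normalization and their cultures, and the values are descriptions.

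**Figure D3:**
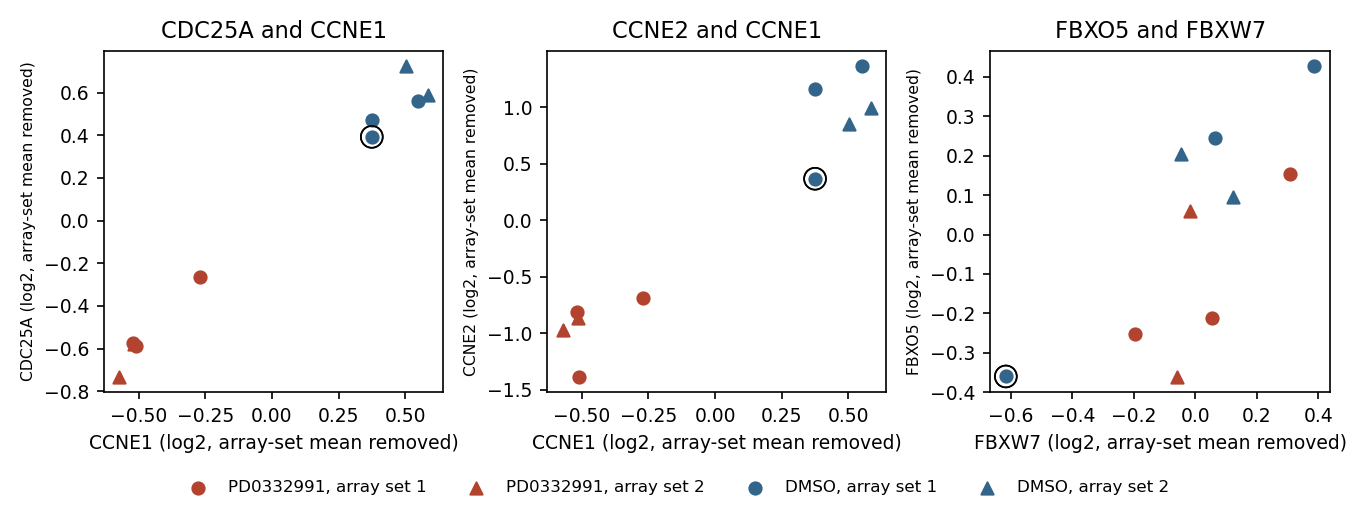
Log2 values of pairs of genes on the 10 arrays after subtraction of each array set's mean, red for PD0332991 and blue for DMSO, circles for set 1 and triangles for set 2, with DMSO replicate 1 ringed. CDC25A and CCNE1 separate by treatment (residual r = 0.87 over both treatments together), and PD0332991 replicate 3 is the highest treated array for both. CCNE2 and CCNE1 separate by treatment with more scatter within it (residual r = 0.46), and FBXO5 and FBXW7 vary together while the treatments overlap.

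The genes with the most similar profile were ranked by Pearson's r over the 10 arrays after subtraction of array set means, a measure that the treatment difference dominates. For CCNE1 the nearest of all genes was CDC25A (r = 0.993), followed by LIMK2, a kinase of cofilin (0.984), E2F2 (0.982), FAM111B (0.980) and MYB (0.972). For CDC25A it was CCNE1, followed by LIMK2 (0.985), the ubiquitin-conjugating enzyme gene UBE2T (0.984), FAM111B (0.981) and E2F2 (0.979). For CCNE2 the nearest were the replication genes MCM10 (0.994), DTL (0.992) and MCM2 (0.992), then FAM111B (0.989) and the mitochondrial myosin gene MYO19 (0.980). The 5 genes nearest to CCNE2 thus shared FAM111B with the lists of the others. The log2 fold changes of LIMK2 (-0.43), UBE2T (-0.61), MCM2 (-0.31) and MYO19 (-0.40) did not pass the limma threshold. Those of MCM10 (-0.77) and DTL (-1.15) passed narrowly (limma adjusted p = 0.0499 for each), and those of MYB (-0.76) and FAM111B (-1.78) also passed. With 1 array left out, the calls of MCM10, DTL and MYB each held in 1 of 10 fits, and that of FAM111B in 5. MYB also did not pass after quantile normalization or cyclic loess. In the 11 alternatives that did not leave out a single array, UBE2T passed in 6, LIMK2 in 1, and MCM2 and MYO19 in 0.

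With treatment and set removed, the 3 nearest genes were others in each case: ST7L, PCOLCE2 and SWT1 for CCNE1 (r = 0.942 to 0.986), TOB1, SHOC2 and CYB5B for CCNE2 (0.986 to 0.990), STK38, CHD1L and VPS4A for CDC25A (0.952 to 0.961), ZNF304, AGPAT4 and APOL2 for CDK2 (0.981 to 0.986), SLC35D2, FNBP4 and BLTP2 for FBXW7 (0.987 to 0.991), and RO60, LARP7 and HSPH1 for FBXO5 (0.985 to 0.991). These are the extremes of 14232 values of r over 10 arrays.

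The other genes of CDK2 control were taken from 6 lists with 65 genes in all, of which 51 had a probe set of their own. Of these 51 genes, 28 were lower and 23 higher, at a median log2 fold change of -0.06, against -0.02 over all 14232 genes, of which 55.3% were lower. E2F2 passed as lower and no gene passed as higher; 8 of the 51 had an unadjusted limma p under 0.05, as had 544 of all 14232. Over all single-symbol genes 0.0632% were called lower and 0.0141% higher. In 4 of the 51 genes (SKP2, CDT1, E2F2 and E2F8) every treated array lay below every DMSO array, a pattern that 0.689% of all genes had, and in 0 every treated array lay above, as did 0.225% of all genes.

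Among the other partners and inhibitors of CDK2, 5 of 7 measured genes were lower and none passed (median log2 fold change -0.09, unadjusted limma p under 0.05 in 0). CDKN1A, which encodes the CDK inhibitor p21, had a log2 fold change of -0.24 ± 0.11 (SE), and CDKN1B, the gene of p27, -0.28 ± 0.19 (SE, n = 5 arrays per treatment), with DMSO replicate 2 above the other controls. CDKN1A had -0.16 without DMSO replicate 1. Leaving out DMSO replicate 2 gave CDKN1B -0.17, leaving out PD0332991 replicate 3 gave -0.16, and its difference of means was -0.47 in array set 1 and -0.0054 in array set 2. CCNA2 encodes cyclin A2, the partner that CDK2 takes on in S phase; its mean was 10.92 ± 0.33 after PD0332991 and 10.99 ± 0.32 in DMSO (log2, SD, n = 5 each), a log2 fold change of -0.06, given here after its value was seen. The difference of means of CCNA2 was 0.06 in array set 1 and -0.25 in array set 2. The dim testis cyclin gene CCNA1 had -0.11, and between -0.23 and -0.03 without single arrays.

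The list on the phosphorylation of CDK2 held kinases that inhibit CDKs and phosphatases of the CDC25 family, among others. Of 6 measured genes 4 were lower, the median was -0.08, and none passed over all probe sets. WEE1, a kinase that places the inhibitory phosphate, had log2 values of 8.36, 8.33, 8.44, 8.01 and 8.14 on the PD0332991 arrays, against 8.60, 8.80, 8.63, 8.42 and 8.46 on the DMSO arrays. Only PD0332991 replicate 3 reached into the DMSO range, and the log2 fold change was -0.33 (95% confidence interval -0.52 to -0.14, limma adjusted p = 0.635). PKMYT1, the membrane-bound relative of WEE1, had -0.35 (-0.60 to -0.09, limma adjusted p = 0.929). The CDC25A relatives CDC25B and CDC25C had -0.10 and -0.06; the value for CDC25C is given after it was seen. DMSO replicate 1 was high for CDC25B, at 10.03 against 9.42 to 9.57 on the other DMSO arrays, and without it the log2 fold change of CDC25B was -0.012. Without DMSO replicate 2 it was -0.16. For CDC25C the difference of means was 0.10 in array set 1 and -0.29 in array set 2.

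Cyclin E turnover genes gave no call. Of 11 measured genes of the SCF ligases and their partners, 4 lay lower and 7 higher (median log2 fold change 0.06). SKP2, the F-box protein that targets p27, had log2 values of 9.81, 9.66, 9.82, 9.77 and 9.79 on the PD0332991 arrays, against 9.99, 10.06, 10.01, 10.07 and 10.05 on the DMSO arrays. The groups did not overlap, and the log2 fold change was -0.27 (95% confidence interval -0.44 to -0.09, limma adjusted p = 0.782). The cullin genes CUL1, the scaffold that FBXW7 uses, and CUL3, the scaffold of another cyclin E ligase, had 0.06 and 0.13 (CUL1 given after its value was seen), and the F-box gene FBXW11 had 0.20. The difference of means of CUL1 was 0.12 in array set 1 and -0.03 in array set 2. Of 13 measured APC/C genes, the machine that EMI1 restrains, 6 lay lower and 7 higher (median 0.00). UBE2C, its ubiquitin-conjugating enzyme, had -0.22, and the subunit genes ANAPC4 and ANAPC10 had -0.29 and 0.36, where DMSO replicate 1 was the highest DMSO array for ANAPC4 and the lowest for ANAPC10. Without that array UBE2C had -0.13 and ANAPC10 0.19. ANAPC10 had 0.24 without PD0332991 replicate 5, and ANAPC4 -0.16 without PD0332991 replicate 3.

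Among genes of proteins that CDK2 phosphorylates, 5 of 6 measured were lower, with a median of -0.35, and none passed. CDT1, which loads the replicative helicase, had log2 values of 8.86, 8.51, 8.68, 8.62 and 8.59 on the PD0332991 arrays, against 10.31, 9.44, 9.36, 9.38 and 9.48 on the DMSO arrays. The groups did not overlap, and DMSO replicate 1 stood far above the other controls. Its log2 fold change was -0.94 with all arrays (95% confidence interval -1.33 to -0.56, limma adjusted p = 0.207) and -0.77 without DMSO replicate 1, where it passed (limma adjusted p = 0.0235). CDC6, the loading partner of CDT1, had -0.68 (limma adjusted p = 0.141, and 0.0495 without DMSO replicate 1), and RBL1, an RB relative, -0.48 (limma adjusted p = 0.686). In the 11 alternatives that did not leave out a single array, CDC6 passed in 4, CDT1 in 2 and RBL1 in 1.

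Of the E2F and DP genes, 5 of 9 measured were lower (median -0.06). E2F2 fell, with log2 values of 7.34, 7.19, 7.25, 7.03 and 6.98 on the PD0332991 arrays, against 8.13, 8.24, 8.24, 8.12 and 8.10 on the DMSO arrays. The groups were far apart relative to the spread within each, at 7.16 ± 0.15 after PD0332991 and 8.17 ± 0.07 in DMSO (log2, SD, n = 5 each; log2 fold change -1.01, limma adjusted p = 0.00289), and the call held without any 1 of the 10 arrays. The repressor gene E2F8 had -0.92 without passing (limma adjusted p = 0.106). It did pass without DMSO replicate 2 (limma adjusted p = 0.0419) and in 3 of the 11 alternatives that did not leave out a single array. E2F7, a relative of E2F8, had -0.19, with DMSO replicate 5 below the other controls.

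**Figure D4:**
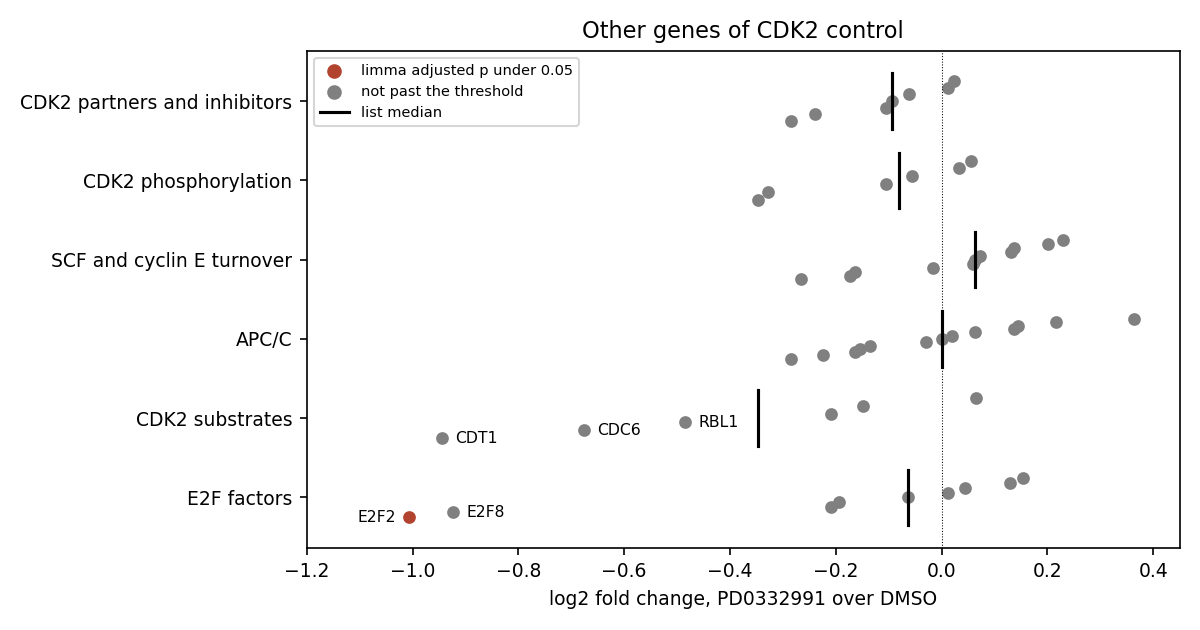
Log2 fold change, PD0332991 over DMSO, of each measured gene in 6 lists of CDK2 control, 1 point per gene, with the list median as a black line and the gene past the limma threshold in red. E2F2 at -1.01 is the red point; CDT1, E2F8, CDC6 and RBL1 lie below -0.4 in grey, and the medians of 5 lists lie between -0.09 and 0.06, against -0.35 for the CDK2 substrates.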

How the data were processed

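Total RNA of 10 U2OS cultures was hybridised to exon arrays as biotin-labelled cDNA, per the labels. The authors deposited log2 expression values for gene-level probe sets, made, per the submitters' processing notes, with RMA and Partek on build hg18; the versions and parameters are not given in the sources used here. Detection calls were not used here. Symbols came from the platform annotation, checked by Entrez identifier against RefSeq (GRCh38.p14). Of 21980 probe sets, 14432 had 1 symbol, 2408 several and 5140 none; the probe set with the highest mean stood for a gene. The deposited values were fitted with limma 3.58.1 in R 4.3.3 (treatment and array set, lmFit and eBayes, 2-sided, Benjamini-Hochberg). The procedure was tested on simulated data with independent noise of the same spread on every array. That test does not cover an array that stands apart, as DMSO replicate 1 did, or genes that vary together. The number of arrays limits the precision. The genes, the lists, the rule for named genes (up to 3 per list with the smallest p, any past the threshold, and the nearest profiles) and the alternatives were chosen with earlier results of these data known. The alternatives covered covariates, normalization, a filter on the dimmest 33.3%, the probe sets tested, weights, moderation, single array sets and leaving out arrays. Promoter windows were read with Python 3.11.15; figures were drawn with Matplotlib 3.10.9.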

Additional observations from a re-analysis of the deposited data

Results flagged for a closer look

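Within each treatment, the 5 arrays of the 6 genes and of the 18 other genes named from the lists were examined for 1 array far from the rest, by the gap to its nearest neighbour over the whole range; chance flags about 1 in 20 groups, and 6 of the 48 groups stood out, 3 of them through DMSO replicate 1. CDK2 was at 9.94 on DMSO replicate 1, where the other DMSO arrays ran from 10.49 to 10.65 (log2). CCNE1 was at 9.41 on PD0332991 replicate 3, where the other treated arrays ran from 9.10 to 9.18. CDT1 was at 10.31 on DMSO replicate 1, against 9.36 to 9.48 on the others, and CDC25B at 10.03 there, against 9.42 to 9.57. CDKN1B was at 8.18 on DMSO replicate 2, against 7.55 to 7.69, and E2F7 at 8.85 on DMSO replicate 5, against 9.17 to 9.24. What set these arrays apart was not tested.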

How the results depend on the processing

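The 3 lower genes of the cyclin E and CDK2 group stayed lower in sign under all 21 alternatives, and the call of all 3 held in 8 of the 11 that did not leave out a single array. They passed in 0 cases with array set 1 alone, with array set 2 alone or with a replicate block instead of the array set (3 as reported). Leaving out 1 array kept all 3 calls for 5 of the arrays and lost all 3 for the other 5. The replicate block gave 1 lower and 1 higher probe set over the table and 0 lower list genes. Same-numbered arrays correlated in their deviations from the treatment means at 0.04 to 0.54, not all over 0.1, with the highest value for replicate 3. These values cannot settle whether the numbers pair the arrays, so the loss of the calls with a replicate block stands as a limit. Over all probe sets, the lower calls (9) became 14 with single-symbol probe sets only, 50 with array weights, 0 in either array set alone and 1 to 20 without single arrays. The higher calls (2) became 4, 13, 0 and 1 to 3 in the same order, and 1 without a covariate. The lower list genes (1) became 2 after quantile normalization, cyclic loess, the filter on low values or without both arrays numbered 1 (an alternative chosen after seeing the data), 3 with single-symbol probe sets, 5 with array weights, 0 in either set alone and 1 to 3 without single arrays. FBXW7 turned negative with array weights (-0.13), within array set 2 (-0.077) and without both arrays numbered 1 (-0.061), and ran from -0.13 to 0.15 without single arrays; CCNA1 was 0.068 within array set 2. The cause of these moves was not tested, except that a single set or a missing array holds fewer samples. Detection calls were not used here, so how far dim signals such as CCNE2 after treatment lay above background is unknown.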
